A study of Mus musculus with 6 samples.

Results

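The BCL2 family sets the threshold for mitochondrial apoptosis, and 10 of its genes were examined in mouse lymphocytes described in the series text as group 1 innate lymphoid cells (ILC1s). The 10 genes were chosen by name from the 24628 genes of the deposited expression table. They comprised 6 genes of pro-survival proteins (Bcl2, Bcl2l1, Mcl1, Bcl2a1a, Bcl2a1b and Bcl2a1d) and 4 genes of BH3-only death initiators (Bcl2l11, Pmaip1, Bbc3 and Bmf). Of these, 8 were abundant enough to be tested, reaching 1 RPKM (reads per kilobase of exon, scaled to library depth) in 3 or more libraries. The other 2, Bcl2a1a and Bmf, are described by their values only.

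RNA-seq was carried out on 3 libraries titled treatment and on 3 libraries titled as Rora fl/fl, that is, with floxed alleles of the gene for the nuclear receptor RORα. The series text compares conditional knockout (cKO) with wild-type ILC1s, so by elimination the treatment libraries stand for the cKO group here, and their column names add Ncr1 to Rora. Whether Ncr1 names the Cre driver, whether both groups carry the floxed alleles, and the sort gate, sex, age and number of animals are not stated in the labels. Replicates are not described as separate animals, and the spread behind each p-value is that between these samples and may be technical.

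Pro-survival BCL2 proteins bind and restrain the pore-forming proteins BAX and BAK on the mitochondrial outer membrane. BH3-only proteins occupy the pro-survival proteins, or engage BAX and BAK directly, and so release cytochrome c and activate caspases. In NK cells and related innate lymphocytes, survival is known to depend on interleukin-15, on MCL1 and BCL2, and on restraint of the BH3-only protein BIM.

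The libraries held 21111333 to 22440170 reads assigned to genes in the cKO group and 20152146 to 21711523 in the floxed group. Rora itself was at 5.69 to 6.29 RPKM in cKO and at 6.92 to 7.91 RPKM in floxed libraries, with groups that did not overlap (log2 difference -0.25, limma's Benjamini-Hochberg adjusted p = 0.242; exact permutation p = 0.1, two-sided, the smallest that 20 assignments allow). A whole-gene RPKM also counts exons outside a deleted part and cannot check a deletion. Defining genes of type 1 innate lymphocytes were detected in both groups, though not all at equal levels: Ncr1 averaged 246 ± 12.5 RPKM in cKO and 372 ± 10.8 RPKM in floxed libraries (SD, n = 3 each), Klrb1c 99.4 ± 4.01 and 103 ± 5.09 RPKM, and Tbx21, the gene of T-bet, 39.9 ± 0.420 and 46.7 ± 4.60 RPKM in the same order. Of 18 tested identity genes 3 fell (Ncr1, with limma's adjusted p = 0.00446, Cxcr6 and Gzmb) and 2 rose (Eomes and Nfil3). Over all tested genes 0.668% fell and 0.652% rose. In the list 6 genes lay above and 12 below 0, with an unadjusted p under 0.05 in 3 above and 8 below 0. The list summed to 1368 to 1402 RPKM in cKO and to 1521 to 1535 RPKM in floxed libraries. The cKO libraries also had less Xist (9.43 ± 0.394 RPKM, against 31.9 ± 3.16 RPKM in floxed libraries) and more Y-linked Ddx3y (20.8 ± 0.438, against 10.4 ± 0.498 RPKM), and the part of these differences in the members' results was not tested.

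Within the family, 1 death initiator gene rose and 1 pro-survival gene fell in the cKO libraries. Pmaip1, which encodes NOXA, averaged 15.4 ± 0.604 RPKM in cKO and 9.35 ± 0.619 RPKM in floxed libraries, and Bcl2a1b, which encodes a form of A1, averaged 7.87 ± 0.247 RPKM in cKO and 12.7 ± 0.724 RPKM in floxed libraries (SD, n = 3 each). The abundant pro-survival genes Mcl1 and Bcl2 differed by less, in opposite directions, and did not pass. Over all 12731 tested genes 1.32% passed: 0.652% rose and 0.668% fell (83 and 85 genes; 111 and 73 after TMM scaling, 124 and 71 after median centring), against 1 of 8 tested members in each direction. With voom on reads recovered from the RPKM, 4.19% of all tested genes passed (1.78% higher and 2.41% lower), against 1 member higher and 2 lower. The groups did not overlap for 6 of the 8 tested members, 3 with cKO higher and 3 with cKO lower, against 20.3% of all tested genes (7.61% and 12.7%). An unadjusted p under 0.05 was reached by 3 members above and 3 below 0, against 14.1% of all tested genes (5.55% and 8.6%). Each log2 difference is the cKO mean minus the floxed mean of log2(RPKM + 1), and the added 1 makes changes of low genes look smaller.

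**Figure D1:**
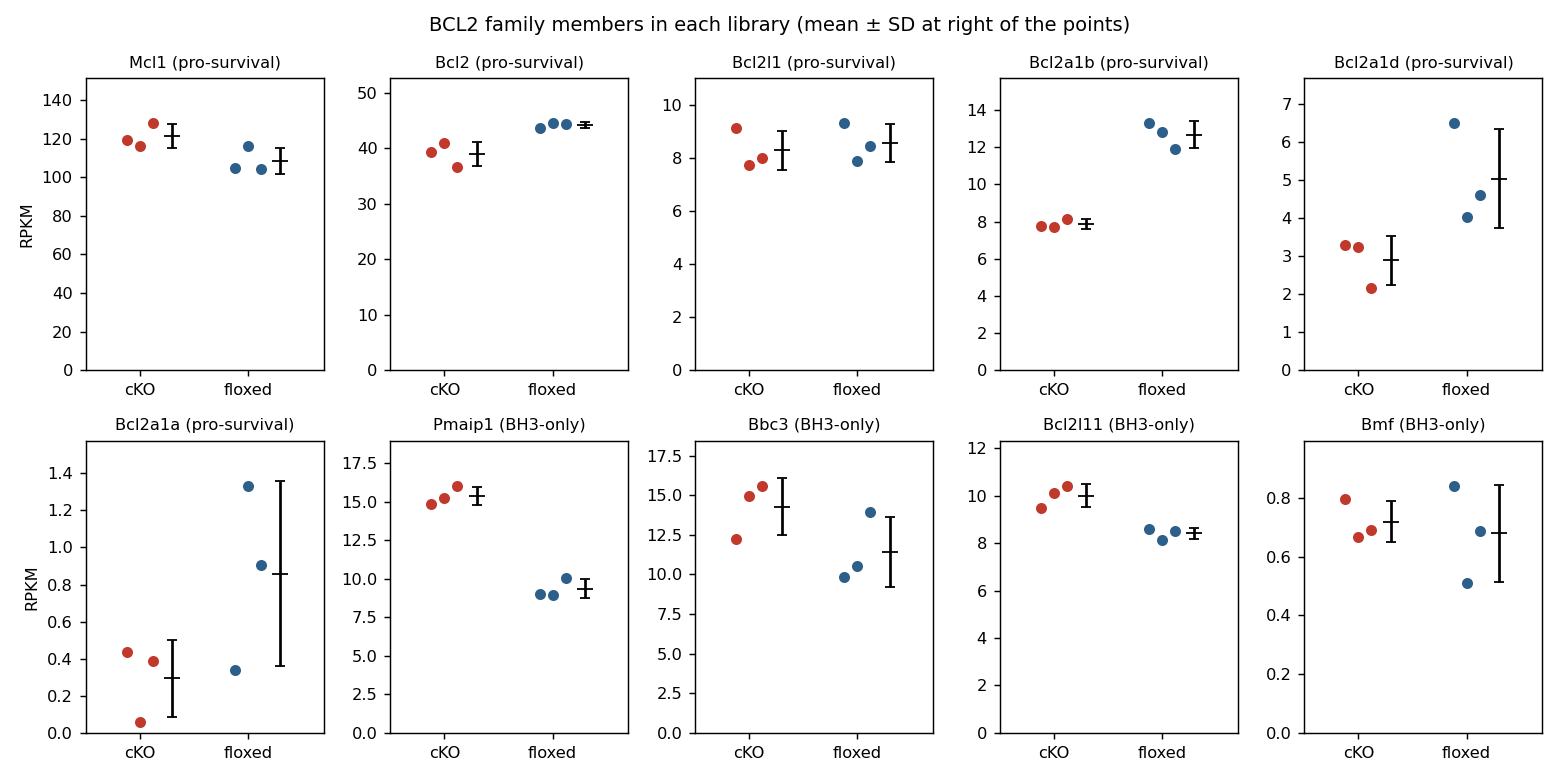
RPKM (vertical axis, from 0) of each of the 10 members in the 3 cKO and 3 floxed libraries, 1 point per library, with the group mean ± SD at the right of the points. The Pmaip1 points of the groups lie apart, at 14.9 to 16.0 RPKM in cKO and 8.96 to 10.1 RPKM in floxed libraries, and so do those of Bcl2a1b, while the Bcl2l1 points interleave.

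The A1 genes lie on chromosome 9 as near-identical copies, and their sequences are shown first because they limit how far reads can be told apart between them. The first 120 coding bases are given 5′ to 3′ in mm10, from the GENCODE M21 transcripts, with capitals at each base that is not the same in all copies. Bcl2a1b is taken from chr9:89199360-89199479 (plus strand), Bcl2a1d from chr9:88731600-88731719 (minus strand) and Bcl2a1a from chr9:88957051-88957170 (plus strand).
Bcl2a1b: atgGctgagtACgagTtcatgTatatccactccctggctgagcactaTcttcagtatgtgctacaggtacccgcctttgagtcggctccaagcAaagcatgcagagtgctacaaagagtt
Bcl2a1d: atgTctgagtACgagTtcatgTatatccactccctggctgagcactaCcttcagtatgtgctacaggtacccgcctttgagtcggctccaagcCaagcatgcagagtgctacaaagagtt
Bcl2a1a: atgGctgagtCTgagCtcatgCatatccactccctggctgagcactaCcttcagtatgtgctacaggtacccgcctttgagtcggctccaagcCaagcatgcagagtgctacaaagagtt

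Over the whole coding sequence of 516 bases, 12 positions differed between the copies. Bcl2a1b and Bcl2a1d differed at 6 of them, Bcl2a1d and Bcl2a1a at 7, and Bcl2a1b and Bcl2a1a at 11. Of all 100-base windows of the Bcl2a1b transcript, 43.2% occurred in no other gene's transcript, against 45.3% for Bcl2a1d and 56.5% for Bcl2a1a. For Bcl2a1b this share was 20.8% with 50-base and 58.1% with 150-base windows. These shares also leave out windows found in Gm29094, a gene that overlaps Bcl2a1b and is not one of the copies. Windows of 100 bases found in another A1 copy made up 31.1% for Bcl2a1b, 54.7% for Bcl2a1d and 43.5% for Bcl2a1a. For Bcl2a1b they made up 57.6% at 50 bases and 14.2% at 150 bases. The sources used here give neither the read length nor the handling of reads with several matches, so reads may have been split between the copies, and the value of each copy is uncertain.

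The promoters of these genes are nearly identical too, over the bases that could be aligned. The stretch just before the first exon is printed below from RefSeq (GRCm38.p6), with capitals at the letters AGGAAGT, which hold the core that ETS factors recognise. The stretches are chr9:89199023-89199208 (Bcl2a1b, plus strand), chr9:88731915-88732100 (Bcl2a1d, minus strand) and chr9:88956670-88956899 (Bcl2a1a, plus strand).
Bcl2a1b: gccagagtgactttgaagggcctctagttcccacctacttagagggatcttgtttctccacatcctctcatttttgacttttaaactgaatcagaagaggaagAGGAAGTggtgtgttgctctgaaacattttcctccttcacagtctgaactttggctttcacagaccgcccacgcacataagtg
Bcl2a1d: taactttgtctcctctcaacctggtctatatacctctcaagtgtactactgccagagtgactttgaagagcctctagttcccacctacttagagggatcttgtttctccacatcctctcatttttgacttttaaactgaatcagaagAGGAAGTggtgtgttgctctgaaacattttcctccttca
Bcl2a1a: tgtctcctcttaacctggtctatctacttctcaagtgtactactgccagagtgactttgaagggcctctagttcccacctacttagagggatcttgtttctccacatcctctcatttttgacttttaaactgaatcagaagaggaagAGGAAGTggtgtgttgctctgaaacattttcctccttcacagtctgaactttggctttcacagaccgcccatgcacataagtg

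Over the bases that could be aligned, Bcl2a1b matched Bcl2a1d at 135 of 136 aligned bases and Bcl2a1a at 185 of 186. Bcl2a1d matched Bcl2a1a at 176 of 180. Gaps were left out of these counts, and the Bcl2a1d stretch lacks the letters aggaag that stand just before AGGAAGT in the other copies. Promoter windows of 300 bases (250 before and 50 after the start) were held for 9 of the 10 members, in 16 windows; Pmaip1 had none and was not searched. Searched on both strands, AGGAAGT lay in the windows of the 3 A1 genes and in none of the other 6 members searched, and in 9.35% of all 32851 windows. The core AGGTCA, which ROR receptors recognise, lay in a window of Bcl2l1 and one of Bmf, and in 16.3% of all windows. For NF-kB, a factor known to act on A1 genes, only an exact sequence without variable positions was searched. That sequence lay in 0 of the members' windows and in 0.155% of all windows. Other forms of the NF-kB site were not searched, so their presence in these windows is not known. These matches describe the letters in the windows and show no binding.

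Among the pro-survival members, Mcl1 had the highest level and Bcl2 the next in both groups, and Bcl2a1d and Bcl2a1a the lowest. RPKM is per length, so these levels can be set side by side. Mcl1 and Bcl2 together held 88.5 to 89.8% of the summed pro-survival RPKM in cKO libraries and 83.4 to 86.1% in floxed libraries. Bcl2a1b and Bcl2l1 were within 1 SD of each other in the cKO group and apart in the floxed group, at 7.87 ± 0.247 and 8.28 ± 0.738 RPKM in cKO against 12.7 ± 0.724 and 8.54 ± 0.721 RPKM in floxed libraries. Of the 5 tested genes, 0 rose and 1 fell in limma; 1 above and 3 below 0 had an unadjusted p under 0.05, and voom passed 0 and 2. The median log2 difference of these 5 was -0.18, against -0.03 over all tested genes.

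Mcl1 encodes a short-lived pro-survival protein that lymphocytes need (chromosome 3, 95658788 to 95663176, plus strand, mm10). It was at 119, 116.3 and 128 RPKM in cKO libraries and at 105, 116.2 and 104 RPKM in floxed libraries. The cKO values were all above the floxed ones, the closest pair of libraries by little. The difference did not pass (log2 difference 0.16, SE 0.06, 95% confidence interval 0.01 to 0.30, limma's adjusted p = 0.312), and 7.61% of all tested genes had groups apart in this direction.

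Bcl2 encodes the founding pro-survival protein of the family (chromosome 1, 106538178 to 106714274, minus strand). Its levels were 39.3, 41.0 and 36.6 RPKM in cKO libraries and 43.6, 44.5 and 44.3 RPKM in floxed libraries. Every cKO library lay below every floxed library, at 88.3% of the floxed mean. In limma it did not pass (log2 difference -0.18, SE 0.05, interval -0.30 to -0.05, adjusted p = 0.211), whereas voom on recovered reads gave adjusted p = 0.0228; over the alternatives it ran from 0.0228 to 0.400. Its exons share 558 bases, 6.09% of their length, with the gene D630008O14Rik on the other strand, and the strand setting of the counting is not given.

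Bcl2l1, the gene of BCL-XL (chromosome 2, 152780668 to 152831728, minus strand), was at 9.11, 7.73 and 7.99 RPKM in cKO libraries and at 9.31, 7.88 and 8.45 RPKM in floxed libraries. The groups overlapped, and the log2 difference was -0.04 with an interval of -0.26 to 0.18 (limma's adjusted p = 0.887). With median centring, its sign turned, at 0.003.

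Bcl2a1b (chromosome 9, 89199209 to 89207827, plus strand) was at 7.75, 7.71 and 8.16 RPKM in cKO libraries and at 13.3, 12.8 and 11.9 RPKM in floxed libraries. All cKO libraries were well below all floxed libraries, at 62.1% of the floxed mean. It fell by 0.62 on the log2 scale (SE 0.07, interval -0.78 to -0.46, limma's adjusted p = 0.0110). The call was lost without cKO replicate 1 (adjusted p = 0.0561), without cKO replicate 2 (0.0611) and without floxed replicate 2 (0.0550); over all alternatives it ran from 0.00632 to 0.0807.

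Bcl2a1d (chromosome 9, 88723285 to 88731914, minus strand) was at 3.30, 3.24 and 2.15 RPKM in cKO libraries and at 6.51, 4.03 and 4.61 RPKM in floxed libraries. Its groups did not overlap either, but the floxed libraries spread widely, and it did not pass (log2 difference -0.63, SE 0.19, interval -1.09 to -0.17, limma's adjusted p = 0.221). Bcl2a1a (chromosome 9, 88956900 to 88962419, plus strand) was at 0.435, 0.0578 and 0.387 RPKM in cKO libraries and at 0.337, 1.33 and 0.903 RPKM in floxed libraries, with overlapping groups. It rested on 1 to 8 reads per cKO library and on 6 to 22 per floxed library, too few to test.

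The 3 A1 genes summed to 11.5, 11.0 and 10.7 RPKM in cKO libraries and to 20.2, 18.2 and 17.4 RPKM in floxed libraries. Such a sum depends less on how reads were divided among the copies. The sums lay apart by group, with a log2 difference of -0.70 when the copies were fitted as 1 gene (limma's adjusted p = 0.00889). A further gene, Gm29094, covers 401 exon bases of Bcl2a1b on the same strand, 49.1% of the exon length of Bcl2a1b, and 663 of its 664 exon bases belong to Bcl2a1b or to Mthfs. Gm29094 held 243, 218 and 217 reads in cKO libraries and 356, 297 and 332 reads in floxed libraries, and it fell as well (log2 difference -0.56, limma's adjusted p = 0.0135). How reads over shared bases were assigned is not given, so Bcl2a1b and Gm29094 may hold the same reads and are not separate results.

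**Figure D2:**
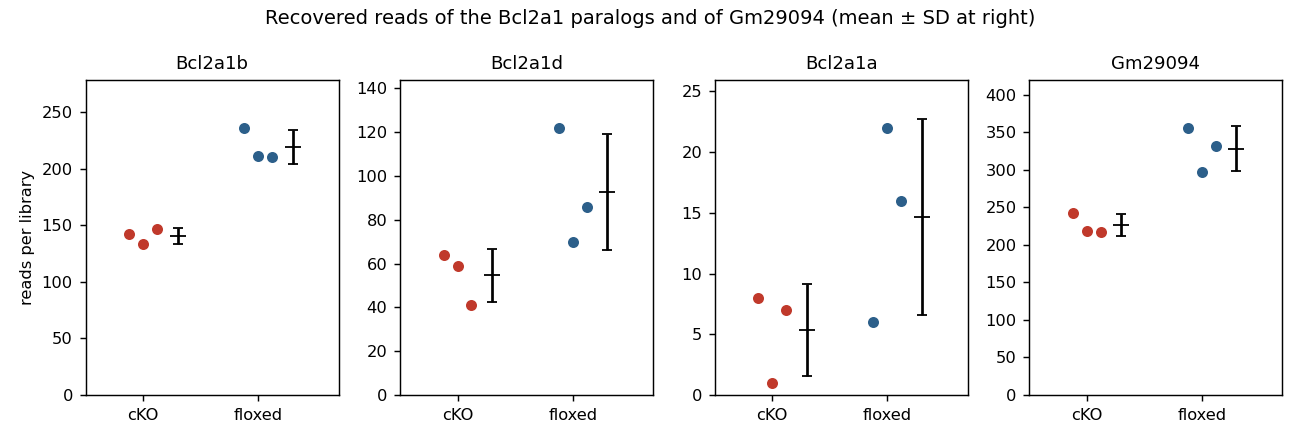
Recovered reads per library (vertical axis, from 0) for the 3 A1 genes and for Gm29094, 1 point per library, with the group mean ± SD at the right. Bcl2a1b had 133 to 147 reads in cKO and 210 to 236 in floxed libraries, while Bcl2a1a had at most 22 reads in any library.

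A1 genes are known to be expressed in several blood cell types, so marker lists of other cells were read beside them. The dendritic cell list summed to 127.7 to 129.8 RPKM in cKO and to 153 to 160 RPKM in floxed libraries, and 2 of its 5 tested genes fell, H2-Ab1 and Cd74 (unadjusted p under 0.05 in 1 above and 2 below 0; voom 1 and 2). Its most abundant gene, Itgax, was at 65.8 ± 3.49 RPKM in cKO and 56.1 ± 4.13 RPKM in floxed libraries, higher with voom (adjusted p = 0.0127) and short of the threshold in limma (adjusted p = 0.206). The B cell list summed to 78.2 to 88.6 and to 77.6 to 81.8 RPKM in cKO and floxed libraries, and 1 of its 3 tested genes fell (Cd22). The T cell list summed to 318 to 325 RPKM in cKO and to 306 to 313 RPKM in floxed libraries. Most of its tested genes were lower in cKO: 2 lay above and 7 below 0, against 7293 of all 12731 tested genes below 0. An unadjusted p under 0.05 was reached by 1 above and 3 below 0, and voom passed 0 and 2. Of 9, 1 fell, Cd3e, at 2.93 ± 0.142 RPKM in cKO and 5.35 ± 0.430 RPKM in floxed libraries, whereas Trbc1, the most abundant, was at 252 ± 0.200 and 231 ± 5.79 RPKM and Cd4 at 25.2 to 30.2 and 26.2 to 29.6 RPKM in the same order, neither passing. The 9 neutrophil markers in the table summed to 0.626 to 1.78 RPKM in cKO and to 1.23 to 2.22 RPKM in floxed libraries, and 0 reached the level for testing; S100a8 was at 0 in all cKO libraries and at 0, 0.286 and 0.133 RPKM in floxed libraries. The macrophage list summed to 37.9 to 38.7 RPKM in cKO and to 40.1 to 44.4 RPKM in floxed libraries, with 0 of 4 tested genes passing in limma (unadjusted p under 0.05 in 0 above and 1 below 0; voom 0 and 0), and Csf1r averaged 1.07 ± 0.414 and 1.21 ± 0.374 RPKM in the same order. The part of other cells in the lower Bcl2a1b was not tested, and in bulk RNA fewer cells of a type and less RNA per cell cannot be told apart.

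Among the BH3-only members, Pmaip1, Bbc3 and Bcl2l11 were at similar levels, and Bmf was far lower. Pmaip1 ranked first in the cKO group, where it and Bbc3 were within 1 SD of each other, and in the floxed group Bbc3 ranked first with Pmaip1 within 1 SD of it. Of the 3 tested genes, 1 rose and 0 fell in limma; 2 above and 0 below 0 had an unadjusted p under 0.05, and voom passed 1 and 0. All 3 lay above 0, with a median log2 difference of 0.30, against -0.03 over all tested genes.

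Pmaip1 encodes NOXA, which binds mainly MCL1 and A1 and promotes the degradation of MCL1 (chromosome 18, 66458604 to 66465550, plus strand). It was at 14.9, 15.2 and 16.0 RPKM in cKO libraries and at 9.02, 8.96 and 10.1 RPKM in floxed libraries. The groups lay far apart relative to their spread, with cKO at 164% of the floxed mean, on 850 to 936 reads per cKO library and 478 to 576 per floxed library. Pmaip1 rose by 0.66 on the log2 scale (SE 0.07, interval 0.50 to 0.83, limma's adjusted p = 0.00970). The call was lost without cKO replicate 2 (adjusted p = 0.0595) and without cKO replicate 3 (0.0532); over all alternatives it ran from 9.57e-05 to 0.0595.

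Bcl2l11 encodes BIM, which binds all the main pro-survival proteins (chromosome 2, 128126038 to 128162547, plus strand). It was at 9.46, 10.1 and 10.4 RPKM in cKO libraries and at 8.59, 8.14 and 8.52 RPKM in floxed libraries. The cKO libraries were all higher, at 119% of the floxed mean, but the difference did not pass (log2 difference 0.22, SE 0.07, interval 0.07 to 0.38, limma's adjusted p = 0.204).

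Bbc3 encodes PUMA, a p53 target that also binds all of them (chromosome 7, 16308393 to 16318205, plus strand). Its levels were 12.2, 15.0 and 15.6 RPKM in cKO libraries and 9.82, 10.5 and 13.9 RPKM in floxed libraries. The groups overlapped, since floxed replicate 3 exceeded cKO replicate 1, and the log2 difference of 0.30 had an interval of -0.04 to 0.65 (limma's adjusted p = 0.420). Bmf, whose protein binds the dynein light chain in resting cells (chromosome 2, 118528757 to 118549687, minus strand), was at 0.797, 0.667 and 0.690 RPKM in cKO libraries and at 0.842, 0.510 and 0.686 RPKM in floxed libraries. Its 3 cKO values lay within the range of its floxed values.

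**Figure D3:**
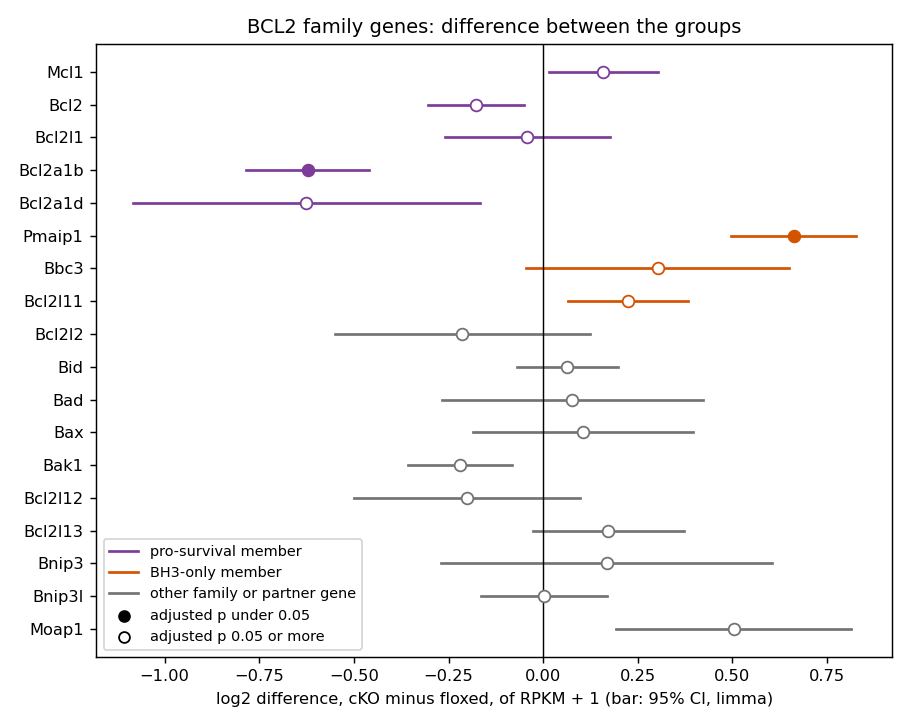
Log2 difference (horizontal axis, cKO minus floxed, of RPKM + 1) of the 8 tested members and of 10 other tested family or partner genes, with 95% confidence intervals from limma. Filled points passed at an adjusted p under 0.05: Pmaip1 at 0.66 and Bcl2a1b at -0.62; all others are open.

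Immediate-early and dissociation-response genes, which are also induced when cells are handled and tissue is dissociated, moved with Pmaip1 in the same libraries. Of 32 tested genes of that list, 21 rose and 0 fell in limma, against 0.652% and 0.668% of all tested genes. An unadjusted p under 0.05 was reached by 26 above and 2 below 0, and voom passed 25 and 1. Among them, Fos, which encodes a subunit of AP-1, averaged 346 ± 13.7 RPKM in cKO and 168 ± 0.819 RPKM in floxed libraries, and Hspa1b, which encodes inducible HSP70, 116 ± 6.07 and 34.3 ± 1.16 RPKM in the same order. The list summed to 4592 to 4622 RPKM in cKO and to 2986 to 3024 RPKM in floxed libraries. The gene Ddit3, whose product CHOP is a stress-induced factor known to act on BIM and PUMA genes, averaged 69.9 ± 3.34 RPKM in cKO and 43.9 ± 1.06 RPKM in floxed libraries (n = 3 each; limma's adjusted p = 0.00336). The part of this response in the higher Pmaip1 was not tested.

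Pro-survival and BH3-only members were then summed by class in each library, as a description with no test. Pro-survival RPKM summed to 179, 176 and 183 in cKO libraries and to 178, 187 and 174 in floxed libraries, so the groups overlapped. BH3-only RPKM summed to 37.3, 41.0 and 42.8 in cKO libraries and to 28.3, 28.2 and 33.2 in floxed libraries, which lay apart. Within the pro-survival sum the mean RPKM of Mcl1 was 12.7 higher in the cKO group, while those of Bcl2, Bcl2a1b and Bcl2a1d fell short of the floxed means by a similar total, so that the mean of the sum differed by -0.246 RPKM. Within the BH3-only sum, which was 10.5 RPKM higher on average in the cKO group, Pmaip1 gave 6.02 RPKM, Bbc3 2.82 RPKM and Bcl2l11 1.59 RPKM.

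The ratio of the sums, pro-survival over BH3-only, was 4.80, 4.29 and 4.29 in cKO libraries and 6.30, 6.63 and 5.25 in floxed libraries. All cKO ratios were below all floxed ratios, with means of 4.46 ± 0.292 in cKO and 6.06 ± 0.720 in floxed libraries (SD, n = 3 each), a log2 difference of -0.44. Mcl1 over Pmaip1, the pair of NOXA and its main partner, was 8.02, 7.64 and 7.99 in cKO libraries and 11.6, 13.0 and 10.4 in floxed libraries. Bcl2 over Bcl2l11 was 4.15, 4.05 and 3.51 in cKO libraries and 5.07, 5.47 and 5.20 in floxed libraries, again apart. Mcl1 over Bcl2l11 did not separate the groups, at 12.6, 11.5 and 12.3 in cKO and at 12.2, 14.3 and 12.2 in floxed libraries. RNA ratios give no protein ratios, and MCL1 in particular is set by protein turnover.

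**Figure D4:**
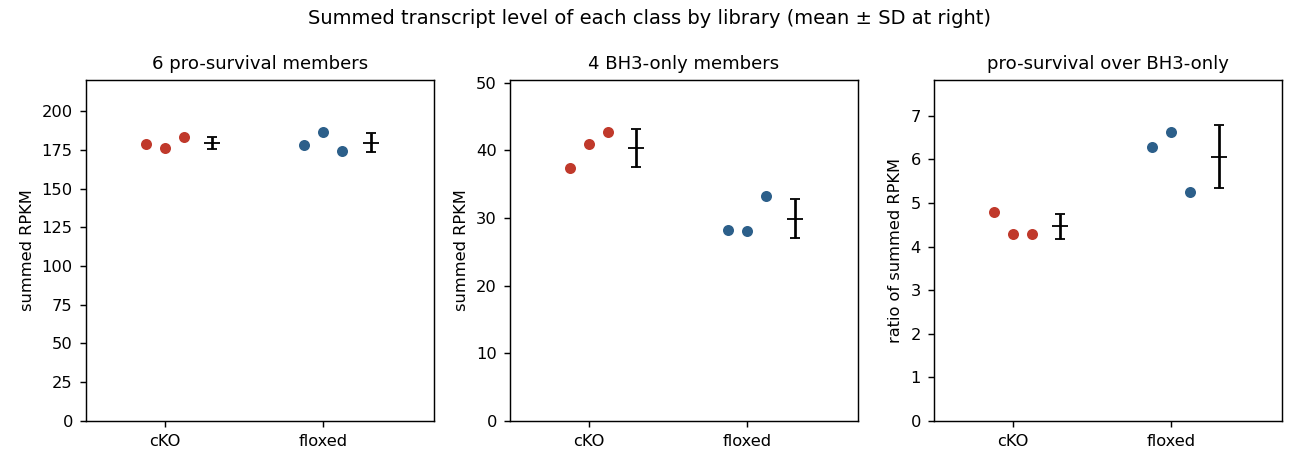
Summed RPKM of the 6 pro-survival members and of the 4 BH3-only members, and the ratio of the sums (vertical axes, from 0), 1 point per library with the group mean ± SD at the right. The pro-survival sums overlap at 176 to 183 RPKM in cKO and 174 to 187 RPKM in floxed libraries, whereas the ratios lie apart.

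The rest of the family and of the apoptosis machinery was read beside the members, and with 1.32% of all tested genes passing, few calls would be due among so few genes. Outside the members, 50 tested genes of the 8 apoptosis lists gave 0 rising and 0 falling genes in limma; 2 above and 5 below 0 had an unadjusted p under 0.05, and voom passed 0 in either direction. These 7 of 50 stand against 14.1% of all tested genes, and 11 of 50 with groups apart against 20.3%. Their log2 differences ran from -0.28 to 0.50, with a median of -0.05. Of the effectors, Bax was at 17.6 ± 1.20 RPKM in cKO and 16.4 ± 2.91 RPKM in floxed libraries (n = 3 each; limma's adjusted p = 0.771), and Bak1 at 15.0 ± 0.413 and 17.6 ± 0.784 RPKM in the same order (adjusted p = 0.164), while Bok was near 0 in both groups.

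Other BH3-only genes were measured as well. Bid, whose product is cleaved by caspase-8 and granzyme B, was at 11.9 ± 0.0394 RPKM in cKO and 11.4 ± 0.309 RPKM in floxed libraries (n = 3 each; limma's adjusted p = 0.675), and Bad at 7.64 ± 1.41 and 7.16 ± 1.08 RPKM in the same order (adjusted p = 0.865). Bik averaged under 1 RPKM in both groups and was not tested. Of the pro-survival genes outside the members, Bcl2l2, the gene of BCL-W, was at 2.29 ± 0.207 RPKM in cKO and 2.84 ± 0.608 RPKM in floxed libraries (adjusted p = 0.572). Moap1, which encodes a BAX partner, had the highest log2 difference of these lists, 0.50, at 14.5 ± 2.20 RPKM in cKO and 9.91 ± 1.30 RPKM in floxed libraries, but the difference did not reach the threshold (adjusted p = 0.161). Bcl2l12 averaged 6.91 ± 1.32 RPKM in cKO and 8.02 ± 0.458 RPKM in floxed libraries, Bcl2l13 8.31 ± 0.692 and 7.25 ± 0.401, Bnip3 2.20 to 3.47 and 1.95 to 3.18 by range, and Bnip3l 22.4 ± 0.547 and 22.4 ± 1.84 RPKM in the same order. These 4 did not pass either, and Bcl2l14 and Bcl2l15 were under 0.5 RPKM in every library. Bcl2l10, Bcl2a1c, Hrk and Pxt1 had no entry under these names in the deposited expression table.

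Downstream and parallel steps gave no passing gene in limma. Of 15 apoptosome and caspase genes 11 lay below 0, and of 7 inhibitor of apoptosis genes 5 lay below 0. Of 10 death receptor genes 8 lay below 0, against 7293 of 12731 tested genes. In the death receptor list an unadjusted p under 0.05 was reached by 0 above and 4 below 0. Over all tested genes these shares were 5.55% and 8.6%, and voom passed 0 of the list in either direction. Casp8, the initiator caspase of death receptors, was at 71.8 ± 2.43 RPKM in cKO and 78.2 ± 3.41 RPKM in floxed libraries (n = 3 each; limma's adjusted p = 0.345), and Birc3, an inhibitor of apoptosis, at 35.1 ± 1.80 and 33.8 ± 3.20 RPKM in the same order (adjusted p = 0.811). Of the genes that govern MCL1 protein turnover 8 were tested, and Huwe1, which encodes an MCL1 ubiquitin ligase, was at 34.4 ± 1.43 RPKM in cKO and 34.5 ± 1.24 RPKM in floxed libraries (adjusted p = 0.967).

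Upstream, signalling through the interleukin-15 and interleukin-7 receptors is known to sustain BCL2 and MCL1 in lymphocytes. Of 16 tested genes of these receptors, the interleukin-2 receptor and their signalling, 3 passed, against 1.32% of all tested genes. Of these, 1 rose, the kinase gene Jak1 (216 ± 2.98 RPKM in cKO and 177 ± 1.96 RPKM in floxed libraries). The 2 that fell were Il2ra, which encodes a chain of the interleukin-2 receptor, and Il7r. Il7r, the interleukin-7 receptor chain, averaged 190.5 ± 1.93 RPKM in cKO and 228 ± 5.49 RPKM in floxed libraries (n = 3 each; limma's adjusted p = 0.0279). Il2rb, the chain shared by the interleukin-15 and interleukin-2 receptors, was at 238 ± 4.21 and 245 ± 3.31 RPKM in the same order, short of the threshold (adjusted p = 0.689). Of 20 tested genes of factors known to act on the members, 3 rose, namely Ddit3, Eomes and Nfil3, and 0 fell in limma (unadjusted p under 0.05 in 4 above and 4 below 0; voom 4 and 2). Of 9 tested p53 target genes, 0 rose and 0 fell in limma (unadjusted p under 0.05 in 2 above and 0 below 0; voom 0 and 0), and its most abundant genes lay on opposite sides. Gadd45b was at 30.3 ± 3.73 RPKM in cKO and 24.7 ± 0.725 RPKM in floxed libraries, and Mdm2 at 25.9 to 28.4 RPKM in cKO and 28.8 to 31.6 RPKM in floxed libraries. Trp53, the gene of p53 itself, named after its values were seen, was at 9.39 ± 0.480 and 12.1 ± 0.987 RPKM in the same order (limma's adjusted p = 0.142; voom 0.0347).

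**Figure D5:**
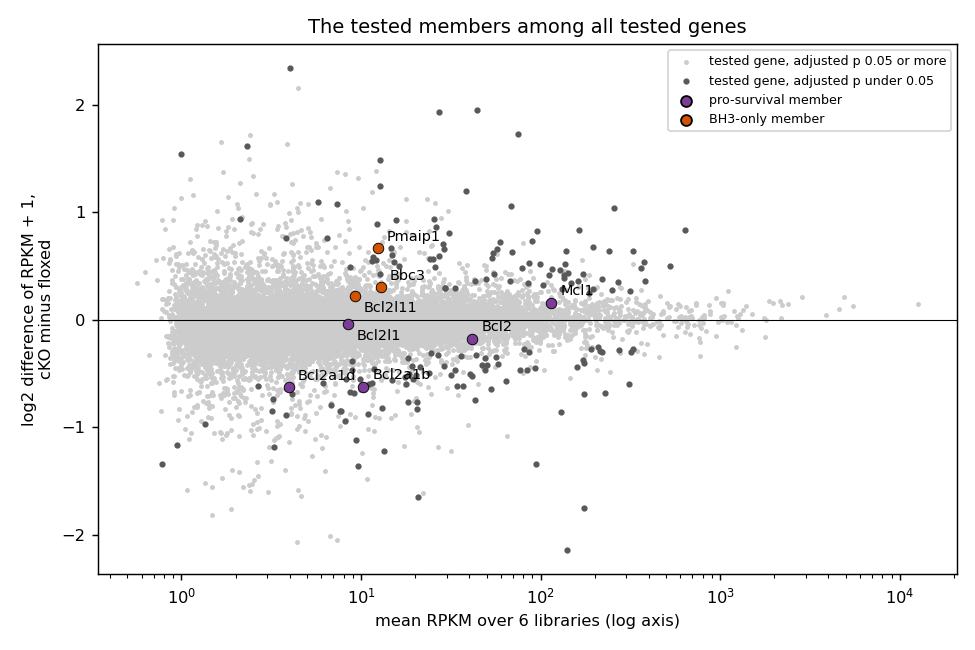
Log2 difference (vertical axis, cKO minus floxed, of RPKM + 1) against mean RPKM over the 6 libraries (horizontal log axis) for all 12731 tested genes, with the 8 tested members in colour. Pmaip1 (0.66) and Bcl2a1b (-0.62) lie among the dark points that passed, and Mcl1 and Bcl2 at higher levels lie nearer to 0.

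The genes whose pattern over the 6 libraries was most like those of Pmaip1 and Bcl2a1b were found by the root mean square difference of log2(RPKM + 1), each gene taken relative to its own mean. Only tested genes were compared, and those named Gm with a number or ending in Rik were left out. For Pmaip1 these were Gzma, which encodes granzyme A (0.0511), the AP-1 gene Jund (0.0549) and Ddit3 (0.0680). For Bcl2a1b they were Ncr1, which encodes NKp46 (0.0394), the inhibitory receptor gene Lilrb4a (0.0506) and the CD3 epsilon chain gene Cd3e (0.0535). The own size of the pattern was 0.336 for Pmaip1 and 0.315 for Bcl2a1b on the same measure.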

How the data were processed

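RNA-seq of 6 mouse lymphocyte libraries was deposited by the authors as RPKM per gene with exon coordinates and gene lengths. The submitters' processing notes name mm10, edgeR 3.12.1, Subread 1.5.1, featureCounts and STAR 2.5.3a, without roles. The sources used here give no strand setting, duplicate handling or annotation version. RPKM multiplied by gene length gave whole reads for 100% of values within 0.001 reads, so depth was recovered.

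The test was limma 3.58.1 in R 4.3.3 (lmFit, eBayes with a trend, two-sided) on log2(RPKM + 1) without covariates, over the 12731 genes that reached 1 RPKM in 3 or more of 6 libraries, with Benjamini-Hochberg adjustment and a threshold of 0.05. It was tested on simulated data. Alternatives were a pseudocount of 0.1, no filter, a filter of 5 RPKM, voom on recovered reads, TMM scaling, median centring, a replicate block, each library left out, the A1 genes summed and, chosen after seeing the data, Bcl2a1b summed with Gm29094.

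The members and lists were chosen with earlier results of these data known. All members and other BCL2 family genes were described; in other lists at most 4 passing genes by smallest p and 2 others by level may be named, besides preset marker genes and, for the member with the smallest p in each class, the 3 genes most like it in pattern. Pairs of libraries differed by more than sampling noise (chi-square per gene 6.79 to 15.8 within groups, at 500 or more reads). Each library was counted as 1 replicate, but such a spread may be technical and does not show that the replicates are separate animals.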

Additional observations from a re-analysis of the deposited data

How the results depend on the processing

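No pairing of the samples by the 3 replicate numbers was seen. Deviations of same-numbered libraries from their group means correlated at -0.0316, 0.0132 and 0.0436 over tested genes, and cKO replicate 1 correlated best with floxed replicate 2 (0.0861). A weak pairing could be missed with 3 libraries per group. With a replicate block, 37 genes rose and 23 fell over all tested genes, against 83 and 85 without it, and 0 pro-survival members fell (Bcl2a1b adjusted p = 0.0807), while Pmaip1 kept its call (adjusted p = 0.0430). Leaving out each library gave 33 to 51 higher and 27 to 39 lower genes, 0 to 1 pro-survival members lower and 0 to 1 BH3-only members higher. No filter gave 44 higher and 36 lower genes and a pro-survival median of -0.34, with Bcl2a1a then included. Voom gave 226 higher and 307 lower genes (1.78% and 2.41% of those tested) and 2 pro-survival members lower, Bcl2 and Bcl2a1b, and Rora passed (log2 difference -0.29, adjusted p = 0.0242). Bcl2l1 changed sign with median centring (0.0025), without cKO replicate 2 (0.0011) and without floxed replicate 1 (0.016; -0.11 to 0.016 over the libraries left out), with an adjusted p of at least 0.729 in every alternative. Of 118 values of the 8 tested members under alternatives, 108 kept direction and side of the threshold. Part of this count was fixed beforehand. Summing rows leaves the log2 differences of the other members unchanged, and a filter or replicate block cannot change a direction. Where rows were summed, the summed row stands for Bcl2a1b. The call was lost in 4 of 15 alternatives for Bcl2a1b and in 2 of 15 for Pmaip1. The BH3-only median stayed at 0.24 to 0.44 and the log2 balance of the classes at -0.61 to -0.32. Where a call was lost, the cause was not tested. Bcl2a1a, at 1 to 22 reads per library, allows no firm comparison. Bmf, at 54 to 96 reads per library over 5253 exon bases, did not reach the RPKM level for testing and is described by its values only.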
